A study of Homo sapiens with 60 samples.

Results

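The genes described here are 41 protein-coding genes of DNA replication and of entry into S phase, chosen as a list by symbol and not by their measured values. All 41 were found among the 60675 genes of the count table, and all 41 were among the 16517 genes with enough counts for a test. RNA-seq read their transcripts in HepG2, an established human line from a hepatocellular carcinoma, 24 h after treatment. The series profiles a herbal decoction and its constituent herbs, and its 60 libraries form 20 groups of 3. The controls received DMSO, given as 0.1% in the labels and as 2% in the design text. No DMSO percentage was recorded here for wortmannin or the extracts, and the part of the solvent in the results was not tested. Wortmannin, a covalent inhibitor of phosphoinositide 3-kinases, was the positive control at 10 µM. Water extracts of Aucklandiae Radix, Zizyphi Semen, Schisandrae Fructus, Longan Arillus and Liriopis seu Ophiopogonis Tuber were given at 500 (high), 100 (medium) and 20 (low) µg/mL. Polygalae Radix was given at 450, 90 and 18 µg/mL. The design text replaces the common high dose by the IC20, an inhibitory concentration, where that lies below it. All groups share the cell line and the time, so no group says how the transcripts moved before or after 24 h.

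DNA replication starts from origins that are licensed before S phase. The origin recognition complex (ORC1, ORC6) with CDC6 and CDT1 loads the MCM ring (MCM2 to MCM7), and the ring becomes an active helicase when CDC45 and the GINS proteins join it with the help of MCM10. DNA polymerase alpha with primase begins each strand, RFC loads the PCNA clamp for polymerases delta and epsilon, RPA coats the single strands, and FEN1 and LIG1 finish the lagging strand. Ribonucleotide reductase (RRM1, RRM2), TYMS and TK1 supply the nucleotides. Many of these genes are transcribed at the border of G1 and S by E2F factors, of which E2F1 is one, while cyclins E1 and E2 (CCNE1, CCNE2) activate CDK2 at the same point.

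The promoters are shown first because the E2F letters, although present in a minority of the members, were more frequent there than among all genes. RefSeq promoters (GRCh38.p14) were matched for 35 of the 41 members. MCM4, MCM5, GINS4, RPA2, RPA3 and CCNE2 were not matched. In the 250 bases before the start site, the letters TTTCCCGC or TTTGGCGC, on either strand, were present in 12 of the 35 members (34.3%), against 2.36% of 27305 genes. They were present in 31% of 29 matched genes of a further replication list and in 5.88% of 17 matched genes of G2 and M phase. The letters TTTGAA, the core of the element named CHR that is known from G2 and M phase genes, were present in 1 of the 35 members (2.86%, RRM1), in 58.8% of the G2 and M phase genes and in 16.1% of all genes. The letters CCAAT, bound by NF-Y, were present in 60% of the members, 88.2% of the G2 and M phase genes and 37% of all genes. None of these motifs contains another, although neighbouring matches can share end letters, and a match describes letters, not a bound site. The 12 members were MCM3, MCM6, MCM7, CDT1, GINS2, PCNA, RFC3, POLA1, POLE, TYMS, LIG1 and E2F1. The windows below, each 70 bases in the direction of the gene with the E2F letters in capitals, belong to the DNA polymerase alpha catalytic subunit (chrX:24693750-24693819, plus strand), 2 MCM genes (MCM3, chr6:52284878-52284947, and MCM6, chr2:135876526-135876595, both minus strand), the clamp (chr20:5126643-5126712, minus strand) and E2F1 itself (chr20:33686386-33686455, minus strand). POLA1 and E2F1 are shown because their transcripts moved in opposite directions, and MCM3 and MCM6 because one was called in several comparisons and the other in none.
POLA1: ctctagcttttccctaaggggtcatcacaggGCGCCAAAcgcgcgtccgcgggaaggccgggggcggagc
MCM3: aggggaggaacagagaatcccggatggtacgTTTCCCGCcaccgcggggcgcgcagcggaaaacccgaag
MCM6: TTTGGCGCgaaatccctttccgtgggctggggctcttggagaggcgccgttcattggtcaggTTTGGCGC
PCNA: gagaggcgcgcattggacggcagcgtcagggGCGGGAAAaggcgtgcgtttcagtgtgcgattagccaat
E2F1: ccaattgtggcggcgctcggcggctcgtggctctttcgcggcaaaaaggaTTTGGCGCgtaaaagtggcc
The MCM6 window holds 2 matches and each of the others holds 1.

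Total counts per library ran from 20209694 to 36410588. Values are CPM after TMM scaling, that is counts scaled to library size, with ± for the SD of n = 3 libraries, and a log2 fold change carries the standard error of the fit (SE). Called means an adjusted p under 0.05 in the quasi-likelihood test of edgeR, adjusted by Benjamini-Hochberg over all 16517 genes, the source of each adjusted p below. Hepatocyte markers were present (ALB at 6080 to 8960 CPM over the 60 libraries), while PTPRC and CD3E, 2 of 6 leukocyte markers, had 0 counts in each library. Summed levels of hepatocyte and of fibroblast and stellate markers moved in some groups and are given beside the results. The largest part of the hepatocyte sum was APOB (17600 to 31100 CPM over the 60 libraries). HNF4A, at 354 to 497 CPM, added little, so the sum does not describe each marker. Leukocyte markers, mostly CD68 (32.2 to 61.6 CPM), summed to 47.8 to 51.9 CPM in the vehicle. They summed to 57.5 to 59.8 CPM under high-dose Aucklandiae, 54.4 to 59.2 CPM under high-dose Schisandrae and 38.5 to 44.8 CPM under low-dose Liriopis. Endothelial markers summed to 3.22 to 3.77 CPM under high-dose Aucklandiae (vehicle 4.9 to 5.07 CPM). The part of marker levels in the results was not tested. All 60 sample titles carry the same label, BatchA. Within it the sample codes fall into 5 sets of unstated meaning, with the vehicle and wortmannin each alone in a set and the extracts paired (Aucklandiae and Polygalae, Zizyphi and Longan, Schisandrae and Liriopis). Each comparison with the vehicle therefore crosses sets and shares the same 3 vehicle libraries, and set and treatment cannot be told apart in it, whereas an extract's doses share a set. Words such as lowered, raised, fell and rose give the direction of a difference between groups and name no cause. Vehicle replicate 1 had 16.1% mitochondrial mRNA against 13% and 13.1% in the other vehicle libraries. Mean shares in the treated groups were 9.11 to 13%, but single treated libraries came near or above it (medium-dose Aucklandiae replicate 1 at 16.6%, low-dose Zizyphi replicate 2 at 15.2%, low-dose Aucklandiae replicate 1 at 14.5%). Vehicle replicate 1 is 1 of 4 libraries that earlier work on these data set apart for the lowest GC slope, not for the mitochondrial share. The others are medium-dose Aucklandiae replicate 3 (10.2% mitochondrial mRNA), low-dose Schisandrae replicate 2 (11.5%) and low-dose Liriopis replicate 1 (10.8%). Counts without these 4 are given beside the results, but not for the tests of a difference between extracts.

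The members varied little over the series. The highest of the 20 group means was 1.15 (CDC6) to 1.5 (CCNE2) times the lowest, with 1.45 for RRM2 and 1.44 for POLE2. Wortmannin had the lowest group mean for 21 members and high-dose Aucklandiae for 14. The vehicle had the highest group mean for 8 members (ORC1, MCM10, GINS1, GINS3, GINS4, POLE2, PRIM1 and RPA2) and the lowest for E2F1. CCNE2 was the member with the fewest reads, 54 to 151 per library, so its changes were the least well measured.

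**Figure D1:**
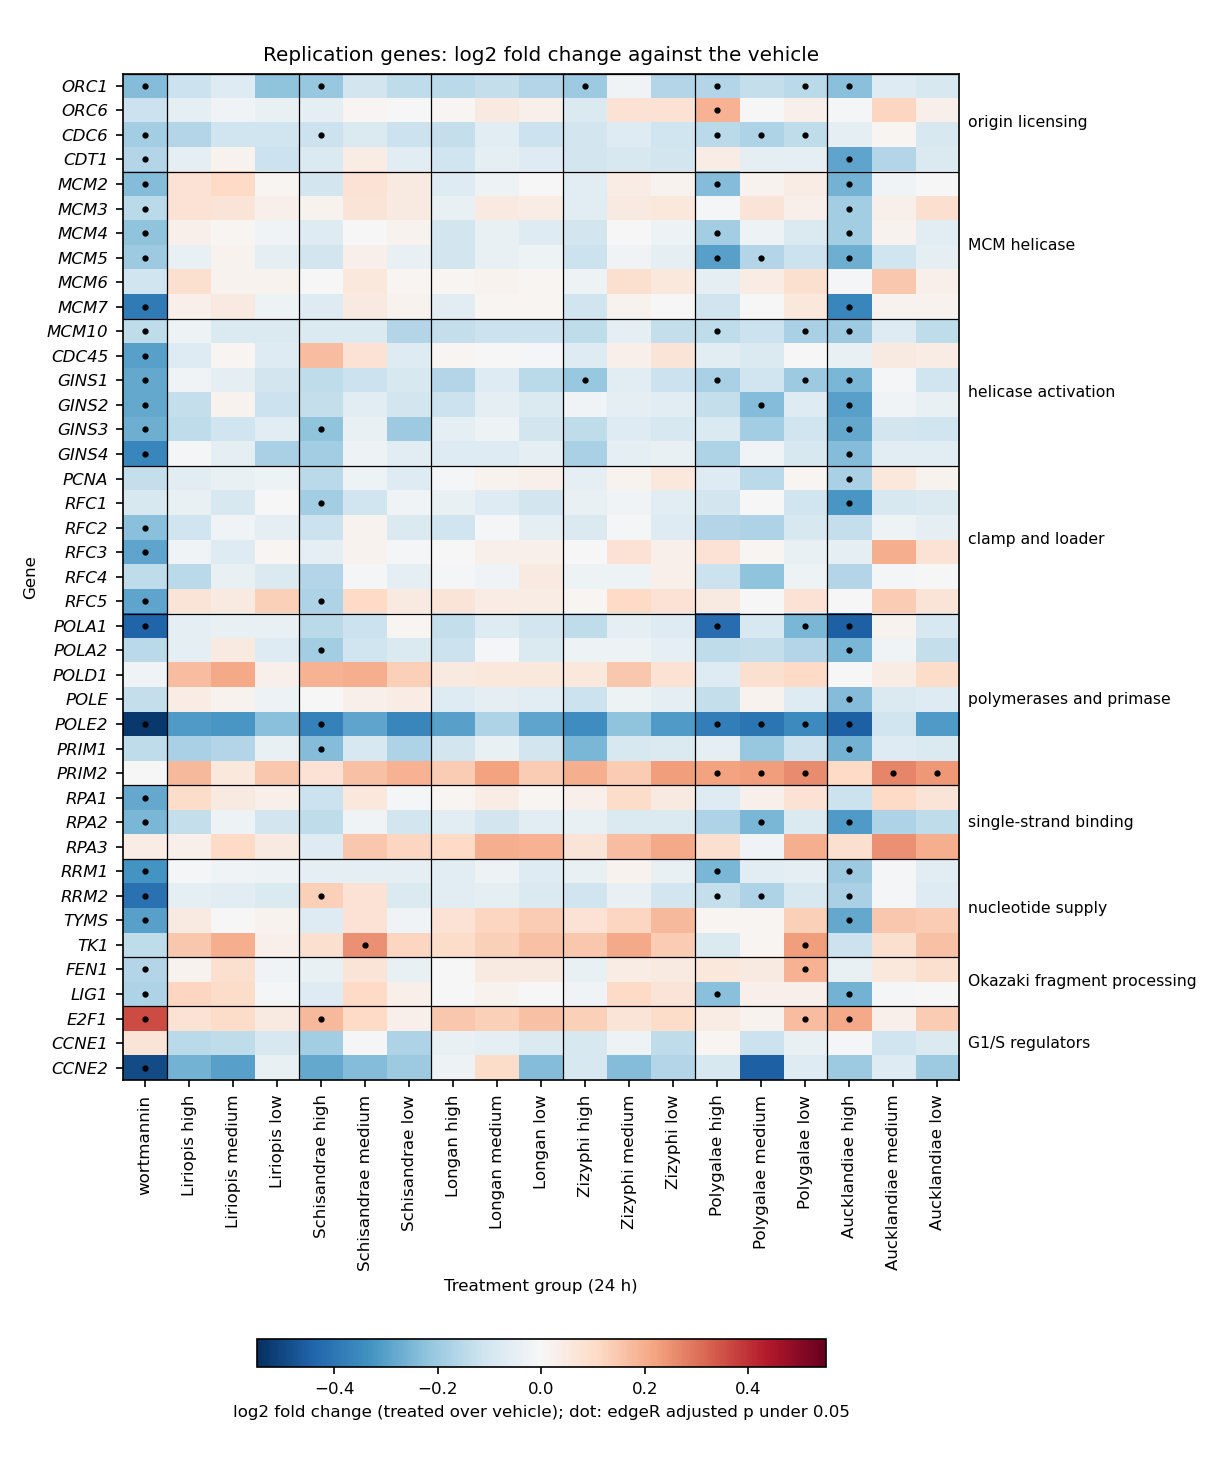
Heat map of the log2 fold change of each of the 41 replication genes (rows, grouped by role) in each of the 19 treated groups against the vehicle (columns); a black dot marks an edgeR adjusted p under 0.05. Blue columns stand out for wortmannin and high-dose Aucklandiae, with 27 and 24 members called lower, while E2F1 is red in the same columns.

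Wortmannin lowered most of the replication genes by a modest amount while E2F1 went the other way. Of the 41 members, 27 fell and 1 rose, and the median log2 fold change of the 41 was -0.202, against 0.008 over all tested genes. Over all tested genes 32.6% were called, 16.2% lower and 16.4% higher. All 10 hepatocyte markers summed to 52400 to 54100 CPM under wortmannin and 47300 to 51300 CPM in the vehicle, and 7 fibroblast and stellate markers, of which 2 passed the count filter, to 20.1 to 23 CPM and 10.7 to 14.7 CPM. Most of the fibroblast and stellate sum was PDGFRB (7.89 to 22.1 CPM over the 60 libraries, against 0.272 to 3.58 CPM for COL1A1). In bulk RNA, fewer cells in S phase and less of these transcripts per cell cannot be told apart.

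The smallest p-values lay in nucleotide supply. RRM2, the regulated subunit of ribonucleotide reductase, was at 258, 268 and 257 CPM in the vehicle and at 205, 201 and 185 CPM under wortmannin. The groups did not overlap, and RRM2 fell by 0.41 ± 0.03 on the log2 scale (SE, edgeR adjusted p = 3.3e-13). RRM1, the large subunit, was at 117, 112 and 110 CPM in the vehicle and 94.2, 88.8 and 87.5 CPM under wortmannin. All 3 treated libraries were lower, with a log2 fold change of -0.33 ± 0.04 (edgeR adjusted p = 3.2e-08). TYMS, which makes thymidylate, fell by 0.30 (edgeR adjusted p = 0.00094), from 145 ± 4.96 to 118 ± 3.25 CPM. TK1, the salvage enzyme for thymidine, did not pass the test (-0.14 ± 0.07, edgeR adjusted p = 0.11). It was called without vehicle replicate 1 (-0.22, edgeR adjusted p = 0.022). The exons of RRM2 overlap those of another gene on the same strand, and the exons of RRM1 and TYMS overlap genes on the opposite strand, so the split of their reads is uncertain.

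All 6 genes of helicase activation and 5 of the 6 MCM genes fell under wortmannin. MCM7, a subunit of the helicase ring, was at 243, 273 and 263 CPM in the vehicle and 211, 199 and 186 CPM under wortmannin, so that each treated library lay below each control. Its log2 fold change was -0.39 ± 0.05 (edgeR adjusted p = 8.6e-08), and its exons overlap AP4M1 on the other strand. MCM2, MCM3, MCM4 and MCM5 had log2 fold changes of -0.24, -0.15, -0.22 and -0.20. MCM6 missed the threshold at -0.11 ± 0.06 (95% interval -0.22 to 0.01, edgeR adjusted p = 0.14). CDC45 fell by 0.30, GINS1 by 0.28, GINS2 by 0.28, GINS3 by 0.27, GINS4 by 0.36 and MCM10 by 0.14. MCM10 was no longer called without vehicle replicate 1 or 2 or without wortmannin replicate 2 or 3.

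In origin licensing, ORC1, CDC6 and CDT1 fell (log2 fold changes -0.24, -0.19 and -0.16), and ORC6 missed the threshold (-0.12, edgeR adjusted p = 0.13). Among polymerases and primase 2 of 7 fell. POLA1, the catalytic subunit of polymerase alpha, was at 50.5, 47.1 and 48.1 CPM in the vehicle and 37.7, 36 and 33.7 CPM under wortmannin. It fell by 0.44 ± 0.06 on the log2 scale with no overlap (edgeR adjusted p = 7e-08). POLE2, an accessory subunit of polymerase epsilon, fell by 0.53 ± 0.12 (edgeR adjusted p = 0.00029) and by 0.38 without vehicle replicate 1. PRIM2, a primase subunit, stood at 16.7 ± 1.19 CPM against 16.8 ± 0.697 in the vehicle. Of the clamp and loader genes RFC2, RFC3 and RFC5 fell (-0.23, -0.29 and -0.29), while PCNA (-0.13, edgeR adjusted p = 0.13), RFC1 (-0.09) and RFC4 (-0.14) did not pass. RPA1 and RPA2 of the single-strand binding complex fell by 0.28 and 0.25, and RPA3 was at 13 ± 0.623 against 12.7 ± 0.783 CPM. FEN1 and LIG1, which trim and seal Okazaki fragments, fell by 0.16 and 0.17, with libraries that overlapped those of the vehicle. CDT1 lost its call without vehicle replicate 2 or wortmannin replicate 3, RFC2 without wortmannin replicate 3, and FEN1 and LIG1 without vehicle replicate 2 or 3 and without wortmannin replicate 1 or 3, LIG1 also without wortmannin replicate 2.

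The regulators of G1 and S split. E2F1 was at 62.6, 75.1 and 74.4 CPM in the vehicle and 94, 88.2 and 89.1 CPM under wortmannin. All treated libraries were higher, and E2F1 rose by 0.36 ± 0.06 on the log2 scale (edgeR adjusted p = 1.7e-06), or by 0.27 without vehicle replicate 1 (edgeR adjusted p = 3e-04). CCNE1 was at 34.5 ± 1.43 against 33 ± 1.11 CPM and did not pass (edgeR adjusted p = 0.49). CCNE2 fell by 0.49 ± 0.20 at 3.79 ± 0.802 and 2.72 ± 0.366 CPM (edgeR adjusted p = 0.048), and lost the call without vehicle replicate 1 (-0.30), without wortmannin replicate 2 or 3 and in DESeq2. The count of called members was 27 in place of 28 without the 4 libraries set apart.

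**Figure D2:**
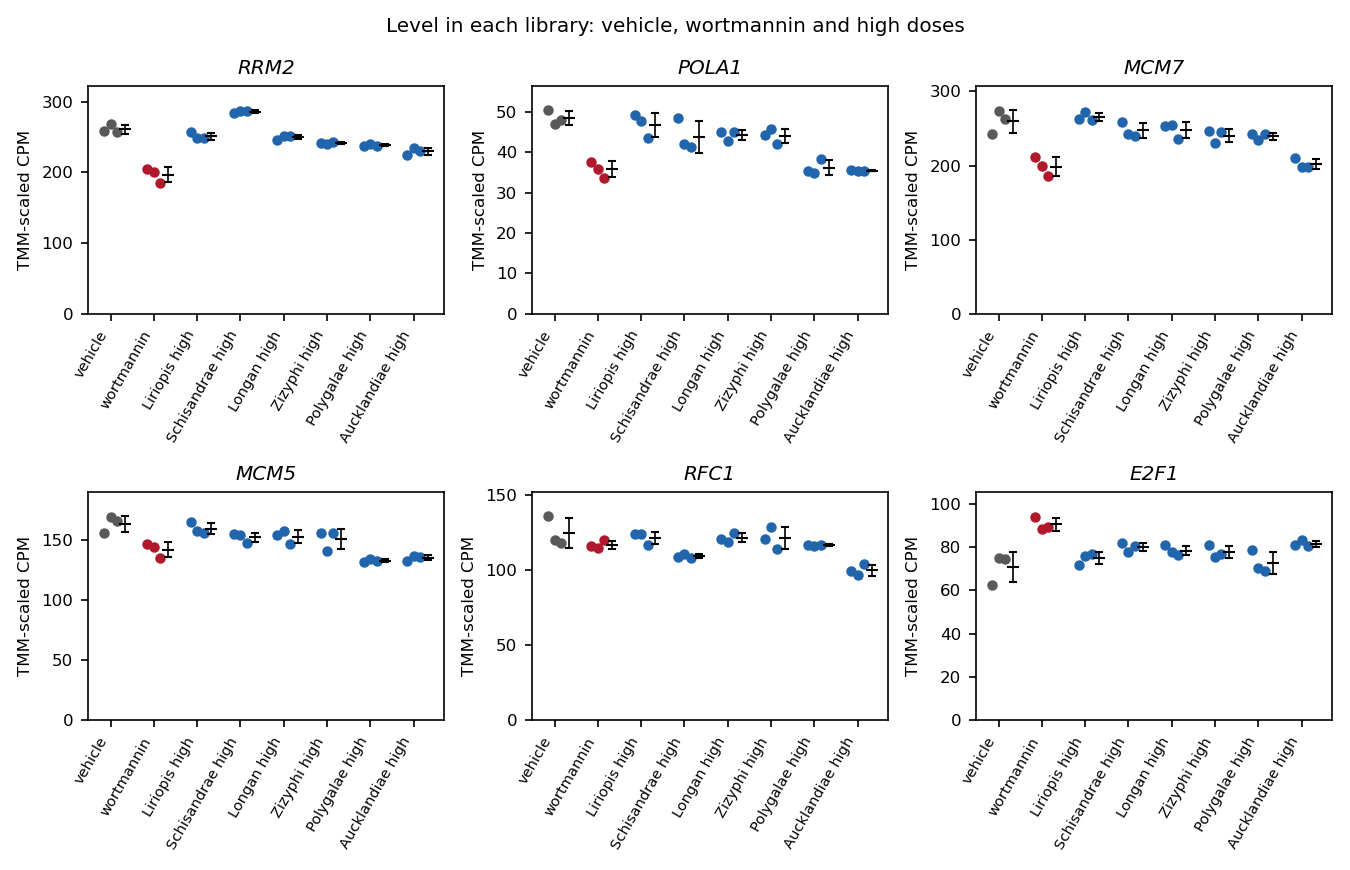
CPM of 6 replication genes in each library (points) of the vehicle, wortmannin and the 6 high doses, with the mean and SD of the 3 libraries as a bar at the right of each group; the vertical axes start at 0. Wortmannin gives the lowest RRM2 and the highest E2F1, high-dose Aucklandiae the lowest RFC1, and POLA1 lies between 33.7 and 38.4 CPM in wortmannin, high-dose Polygalae and high-dose Aucklandiae.

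High-dose Aucklandiae (500 µg/mL) gave the largest response of the extracts by the number of members called. Of the 41 members 24 fell and E2F1 rose, with a median log2 fold change of -0.199 against 0 over all tested genes. Over all tested genes 26.1% were called, 12.5% lower and 13.6% higher. The hepatocyte markers summed to 38700 to 41500 CPM, below the 47300 to 51300 CPM of the vehicle, and the fibroblast and stellate markers to 9.95 to 13.2 CPM. POLA1 was at 35.7, 35.3 and 35.5 CPM, each below the vehicle's 50.5, 47.1 and 48.1 CPM, a log2 fold change of -0.45 ± 0.06 (edgeR adjusted p = 5.4e-08). MCM7 was at 210, 198 and 198 CPM against 243, 273 and 263 CPM. It fell by 0.36 ± 0.05 with no overlap (edgeR adjusted p = 4.9e-07). RFC1, the large subunit of the clamp loader, was at 99.7, 96.7 and 104 CPM, below vehicle libraries at 136, 120 and 118 CPM. All 3 treated libraries were lower, with a log2 fold change of -0.32 ± 0.05 (edgeR adjusted p = 2.9e-06), and of -0.25 without vehicle replicate 1. MCM5 was at 133, 137 and 136 CPM against 156, 169 and 166. The groups were apart and MCM5 fell by 0.27 ± 0.05 (edgeR adjusted p = 1e-05).

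By role, high-dose Aucklandiae lowered 5 of 6 MCM genes (all but MCM6, -0.01), 5 of 6 helicase activation genes (all but CDC45, -0.04) and 5 of 7 polymerase and primase genes (all but POLD1, 0.00, and PRIM2, 0.11). In nucleotide supply RRM2 (-0.18), RRM1 (-0.20) and TYMS (-0.28) fell and TK1 (-0.12) did not pass. TK1 was called without vehicle replicate 1 (-0.20, edgeR adjusted p = 0.047). ORC1 (-0.23) and CDT1 (-0.29) fell, while CDC6 stood at -0.05 with a 95% interval of -0.14 to 0.03. MCM2 fell by 0.26, MCM3 by 0.19 and PCNA by 0.18, the last losing its call without vehicle replicate 1 or any of 4 other libraries. RFC1 and PCNA were the called members of the clamp and loader, whereas RFC5 was level with the vehicle (27.9 ± 1.21 against 27.8 ± 0.613 CPM). CCNE1 (-0.01) and CCNE2 (-0.20) did not pass. E2F1 was at 80.8, 83.1 and 80.6 CPM and rose by 0.21 ± 0.06 (edgeR adjusted p = 0.0044), a call lost without vehicle replicate 1 (0.12, edgeR adjusted p = 0.14), as were those of POLE2 (-0.45 to -0.30) and PRIM1 (-0.26 to -0.19). The count of called members was 22 without the 4 libraries set apart.

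High-dose Polygalae (450 µg/mL) lowered 12 members and raised 2, with a median log2 fold change of -0.1 against 0.006 over all tested genes, of which 20.1% were called, 9.92% lower and 10.2% higher. The hepatocyte markers summed to 37500 to 38500 CPM, below each vehicle library, and the fibroblast and stellate markers to 8.46 to 12.3 CPM. POLA1 led again at 35.5, 34.8 and 38.4 CPM, below the 47.1 to 50.5 CPM of the vehicle in each library (-0.42 ± 0.06, edgeR adjusted p = 4.8e-07). MCM5 was at 132, 134 and 133 CPM against 156, 169 and 166 CPM and fell by 0.30 ± 0.05 (edgeR adjusted p = 3.5e-06). RRM1 was at 95.6, 96.7 and 92.6 CPM, below the 110 to 117 CPM of the vehicle (-0.25 ± 0.04, edgeR adjusted p = 1.5e-05). MCM4 was at 251, 242 and 251 CPM against 277, 288 and 282 CPM. It fell by 0.19 ± 0.04 without overlap (edgeR adjusted p = 0.00067). MCM2 (-0.24), RRM2 (-0.13), CDC6 (-0.15) and LIG1 (-0.23) fell too. PRIM2 rose by 0.22 ± 0.07 (edgeR adjusted p = 0.021) and ORC6, a subunit of the origin recognition complex, by 0.19 ± 0.06 (edgeR adjusted p = 0.017).

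The other fixed members did not pass under high-dose Polygalae. MCM7 stood at -0.11, PCNA at -0.07, CDC45 at -0.06, CDT1 at 0.04, TYMS at 0.01, TK1 at -0.08, E2F1 at 0.04, CCNE1 at 0.01 and CCNE2 at -0.09. Without vehicle replicate 1 the value of E2F1 was -0.05, and MCM7 was called (-0.17, edgeR adjusted p = 0.041). ORC6 lost its call without vehicle replicate 2 or 3 or high-dose Polygalae replicate 1 or 2. The calls of POLE2 (-0.38 to -0.23), PRIM2 (0.22 to 0.18), GINS1 (-0.18 to -0.16) and MCM10 (-0.14) were lost without vehicle replicate 1. The count of called members was 13 without the 4 libraries set apart and 7 where no filter on low counts was used.

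Under high-dose Schisandrae (500 µg/mL) RRM2 was higher than in the vehicle, while RRM1, TYMS and TK1 were not called. RRM2 was at 284, 287 and 287 CPM against 258, 268 and 257 CPM, with no overlap, and rose by 0.13 ± 0.03 (edgeR adjusted p = 0.0048). The list as a whole had 8 members lower and 2 higher, with a median of -0.102 against -0.005 over all tested genes, of which 15.6% were called, 7.26% lower and 8.39% higher. The hepatocyte markers summed to 48000 to 49900 CPM, within the vehicle's range, and the fibroblast and stellate markers to 18.2 to 20.6 CPM, above it. ORC1 was at 35.8, 33.6 and 32.8 CPM against 36.6, 40.5 and 41.1 CPM and fell by 0.21 ± 0.05 (edgeR adjusted p = 0.0032). RFC1 was at 109, 111 and 108 CPM, below each vehicle library, a log2 fold change of -0.19 ± 0.05 (edgeR adjusted p = 0.0055). POLE2 was at 8.48, 9.01 and 10.2 CPM against 14.2, 10.5 and 11 CPM and fell by 0.37 ± 0.12 (edgeR adjusted p = 0.02).

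Most of the other fixed members did not pass under high-dose Schisandrae. MCM2 stood at -0.10, MCM7 at -0.07, CDT1 at -0.08, CDC45 at 0.17, PCNA at -0.15, POLA1 at -0.15, TYMS at -0.07, TK1 at 0.09, CCNE1 at -0.19 and CCNE2 at -0.28, none called. CDC6 fell by 0.12 and E2F1 rose by 0.18. This comparison rested on single libraries: without vehicle replicate 1 the number of called members was 4 in place of 10, and the calls of CDC6, E2F1 (0.10), RFC1 (-0.12), POLE2 (-0.22), POLA2, PRIM1 and GINS3 were lost. RRM2 (0.12, edgeR adjusted p = 0.03) and ORC1 kept theirs. Without vehicle replicate 2 the count was 6, without high-dose Schisandrae replicate 1 or 2 it was 5, and without the 4 libraries set apart it was 4.

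The remaining high doses moved few members. High-dose Zizyphi lowered GINS1, of the GINS complex, and ORC1, while 4.42% of all tested genes were called (1.86% lower, 2.55% higher). GINS1 was at 55.8, 52.3 and 55.2 CPM, below the 65.8, 61.3 and 62.1 CPM of the controls, and fell by 0.21 ± 0.05 (edgeR adjusted p = 0.014). ORC1 was at 34.3, 34.3 and 34.5 CPM, below each vehicle library, and fell by 0.20 ± 0.05 (edgeR adjusted p = 0.02). The number of called members was 0 without high-dose Zizyphi replicate 2, and 1 without vehicle replicate 1, vehicle replicate 3, high-dose Zizyphi replicate 1 or the 4 libraries set apart. MCM2 stood at -0.06, MCM7 at -0.11, CDC6 at -0.10, CDT1 at -0.10, CDC45 at -0.07, PCNA at -0.05, POLA1 at -0.14, RRM2 at -0.11, TYMS at 0.08, TK1 at 0.15, E2F1 at 0.13, CCNE1 at -0.09 and CCNE2 at -0.09 in that comparison. High-dose Longan had 0 members called by edgeR (10 at an unadjusted p under 0.05, 0 with DESeq2), while 1.78% of all tested genes were called. High-dose Liriopis had 0 called by edgeR (10 unadjusted, 0 with DESeq2), while 0.0484% of all tested genes were called.

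Values of the fixed members in those comparisons were small. Under high-dose Longan MCM2 was at -0.07, MCM7 at -0.06, CDC6 at -0.13, CDT1 at -0.11, CDC45 at 0.01, PCNA at -0.01, POLA1 at -0.13, RRM2 at -0.06, TYMS at 0.08, TK1 at 0.10, E2F1 at 0.15, CCNE1 at -0.04 and CCNE2 at -0.03. Under high-dose Liriopis MCM2 was at 0.08, MCM7 at 0.03, CDC6 at -0.16, CDT1 at -0.05, CDC45 at -0.07, PCNA at -0.06, POLA1 at -0.05, RRM2 at -0.05, TYMS at 0.05, TK1 at 0.15, E2F1 at 0.08, CCNE1 at -0.15 and CCNE2 at -0.26. Over the 41 members, the lowest and highest bounds of the 95% intervals were -0.52 and 0.34 under high-dose Longan and -0.64 and 0.36 under high-dose Liriopis.

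At medium and low doses calls were few except for Polygalae. Medium-dose Polygalae (90 µg/mL) lowered 6 members and raised 1, with 11.6% of all tested genes called (5.73% lower, 5.92% higher). RRM2 was at 238, 230 and 229 CPM, below each vehicle library (-0.17 ± 0.03, edgeR adjusted p = 0.00091), and CDC6, the licensing factor that recruits the MCM ring, was at 98.3, 96 and 97.4 CPM against 112, 109 and 107 CPM (-0.17 ± 0.04, edgeR adjusted p = 0.0071). The count of called members there ran from 3 without medium-dose Polygalae replicate 2 or 3 to 12 without replicate 1, and was 4 without vehicle replicate 1 or 2 and 5 without the 4 libraries set apart. Low-dose Polygalae (18 µg/mL) lowered 6 and raised 4, with 15.6% of all tested genes called (7% lower, 8.64% higher). POLA1 was at 39.6, 39.8 and 43.5 CPM and fell by 0.25 ± 0.06 (edgeR adjusted p = 0.0026), while PRIM2 was at 19.2, 19.7 and 21.5 CPM against 16, 16.9 and 17.4 CPM and rose by 0.26 ± 0.07 (edgeR adjusted p = 0.0065). Without vehicle replicate 1 the low-dose Polygalae count was 3 in place of 10, and PRIM2 lost its call (0.23), and without the 4 libraries set apart it was 5.

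Single members were called in 3 further groups. TK1 was at 91.6, 89 and 101 CPM under medium-dose Schisandrae against 71.4, 82.5 and 83.9 CPM and rose by 0.25 ± 0.07 (edgeR adjusted p = 0.035), with 2.98% of all tested genes called (1.79% higher, 1.2% lower). PRIM2 rose by 0.27 ± 0.07 under medium-dose Aucklandiae (19.2, 19.9 and 21.2 CPM, edgeR adjusted p = 0.017, 5.52% of all tested genes called, 3.05% higher, 2.46% lower). PRIM2 rose by 0.24 ± 0.07 under low-dose Aucklandiae (20.5, 18.3 and 20.3 CPM, edgeR adjusted p = 0.041, 4.45% of all tested genes called, 2.19% higher, 2.26% lower). Each of these calls was lost without the 4 libraries set apart. TK1 lost its call without vehicle replicate 1 or medium-dose Schisandrae replicate 3, and PRIM2 under medium-dose Aucklandiae without vehicle replicate 1 or medium-dose replicate 3, and under low-dose Aucklandiae without vehicle replicate 1 or 2 or low-dose replicate 1 or 3. The other 7 medium and low groups had 0 members called by edgeR, with 2 to 10 at an unadjusted p under 0.05. DESeq2 called 1 member in low-dose Zizyphi and 0 in the other 6. Of all tested genes, 0.0303% were called in medium- and in low-dose Liriopis, 0.0727% in low-dose Schisandrae, 0.0666% and 0.581% in medium- and low-dose Longan, and 0.702% and 2.09% in medium- and low-dose Zizyphi.

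Across the 19 comparisons, which share the vehicle, some members leaned one way in nearly every group. E2F1 had a mean above the vehicle in 19 of 19 treated groups and was called higher in 4. PRIM2 was above in 18 and called in 5. POLE2 was below in 19 of 19 and called lower in 6, ORC1 was below in 19 and called in 6, and GINS1 was below in 19 and called in 5. MCM10, GINS3, GINS4, PRIM1 and RPA2 were below in 19 as well. Because the same 3 vehicle libraries enter each of these counts, they are not 19 separate observations. Vehicle replicate 1 was the highest of the 3 for POLE2 (14.2 CPM), GINS1 (65.8 CPM), PRIM1 (20.3 CPM) and RPA2 (28 CPM) and the lowest for E2F1 (62.6 CPM) and PRIM2 (16 CPM), on the side away from the treated groups. For ORC1 (36.6 CPM) and GINS4 (27.4 CPM) it was the lowest, on the side of the treated groups, and for MCM10 and GINS3 it lay between the others. Without vehicle replicate 1 every PRIM2 call was lost, and POLE2 and E2F1 kept a call under wortmannin alone. GINS1 kept its calls under wortmannin and high-dose Aucklandiae alone, while ORC1 kept all of its calls. MCM6, POLD1, RFC4, RPA3 and CCNE1 were called in none of the 19.

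Comparing an extract's high dose with its low dose stays within a code set and leaves the vehicle out. High- against low-dose Aucklandiae lowered 17 members and raised 0, with a median of -0.141 against 0 over all tested genes, of which 14.9% were called, 7.14% lower and 7.76% higher. MCM7 was at 210, 198 and 198 CPM at the high dose and 249, 270 and 268 CPM at the low dose. The doses did not overlap, and the log2 fold change was -0.38 ± 0.05 (edgeR adjusted p = 2.8e-07), close to that against the vehicle. MCM3, another subunit of the ring, was at 301, 278 and 294 CPM at the high dose and 335, 366 and 357 CPM at the low dose (-0.28 ± 0.04, edgeR adjusted p = 5.5e-07). All 4 nucleotide supply genes fell, TYMS by 0.42, TK1 by 0.29, RRM1 by 0.14 and RRM2 by 0.11. MCM2, MCM4 and MCM5 fell as well, leaving MCM6 as the uncalled member of the ring. E2F1 was not called in this comparison. With the 6 libraries fitted alone, 10 members were called, and with the 4 libraries set apart left out, 18.

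The members called lower by wortmannin against the vehicle and those called lower by high- against low-dose Aucklandiae come from comparisons that share no library. They had 14 members in common, which is 51.9% of the 27 and 82.4% of the 17. Since wortmannin lowered 27 of the 41, a large overlap follows in part from that count, and nothing is read from it.

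High- against low-dose Polygalae lowered 6 members (RRM1, TK1, MCM2, LIG1, MCM5 and MCM7) and raised 0, with 3.93% of all tested genes called, 2.7% lower and 1.23% higher. RRM1 was at 95.6, 96.7 and 92.6 CPM at the high dose and 108, 111 and 110 CPM at the low dose (-0.20 ± 0.04, edgeR adjusted p = 0.0014). TK1 was at 73.3, 77.2 and 74.5 CPM against 92.2, 98.5 and 87.7 CPM (-0.31 ± 0.07, edgeR adjusted p = 0.0027). Neither gene overlapped between the doses. POLA1 was at 36.2 ± 1.89 CPM at the high and 41 ± 2.23 CPM at the low dose of Polygalae and was not called between them. Without low-dose Polygalae replicate 2 the number of called members was 3, and MCM7 (-0.18) lost its call when any of 5 of the 6 libraries was left out.

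High- against low-dose Schisandrae raised RRM2 and CDC45 and lowered RFC5 and RFC1, with 9.98% of all tested genes called, 5.18% higher and 4.8% lower. RRM2 was at 284, 287 and 287 CPM at the high dose and 244, 249 and 248 CPM at the low dose, a log2 fold change of 0.21 ± 0.03 (edgeR adjusted p = 1e-05). RFC5, a small subunit of the clamp loader, was at 24.1, 24.7 and 25.1 CPM against 29.6, 28.5 and 28.3 CPM (-0.22 ± 0.06, edgeR adjusted p = 0.0038). Both were free of overlap between doses. Without high-dose Schisandrae replicate 3 the count was 2, and CDC45 lost its call when any of 5 of the 6 libraries was left out. High against low doses of Liriopis, Longan and Zizyphi had 0 members called by edgeR and 0 with DESeq2, with 2, 0 and 4 at an unadjusted p under 0.05. Of all tested genes 0, 0.00605% and 0.351% were called in them.

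**Figure D3:**
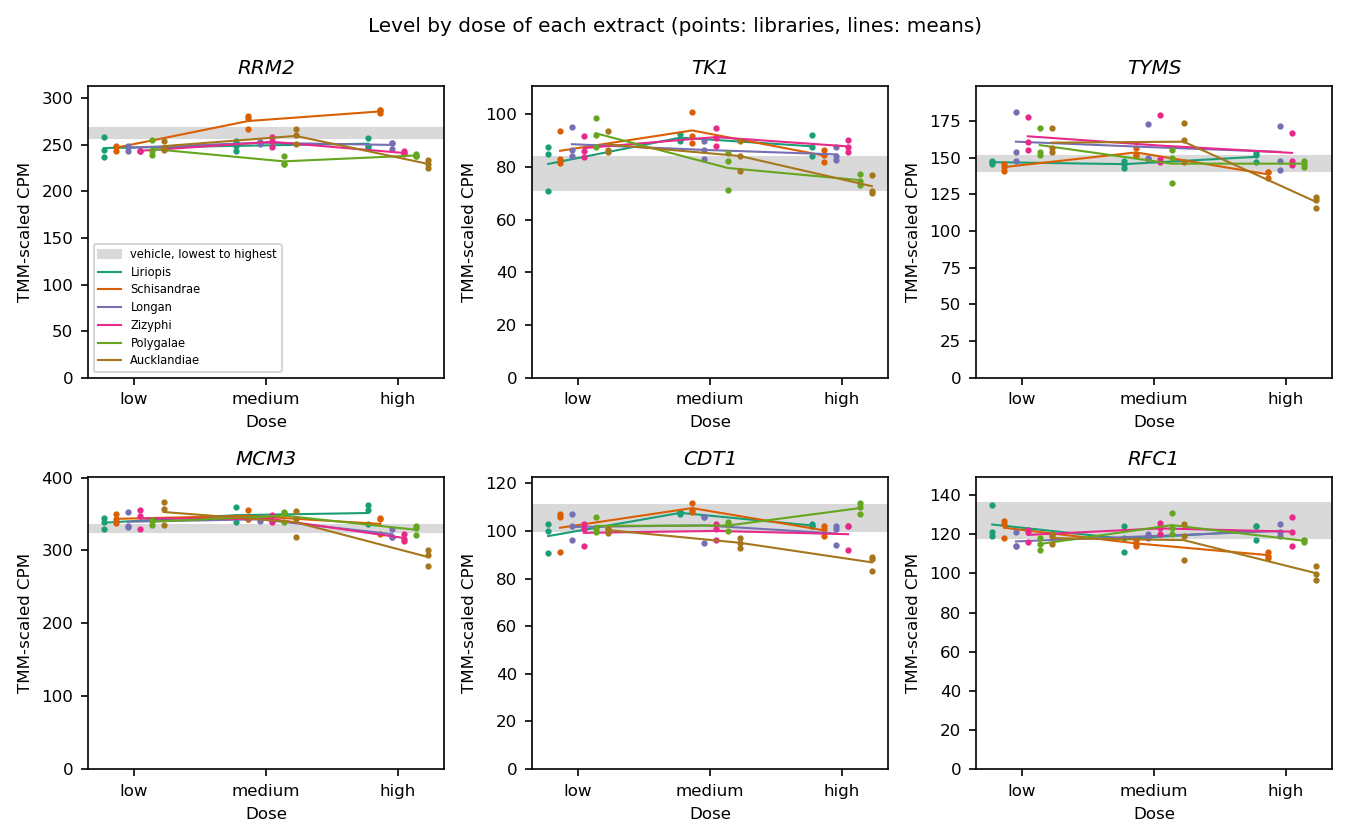
CPM of RRM2, TK1, TYMS, MCM3, CDT1 and RFC1 (vertical axes from 0) at the low, medium and high dose of each extract; points are libraries, lines join the means, and the grey band spans the lowest to highest vehicle library. RRM2 is highest at the high dose of Schisandrae (284 to 287 CPM), and at the high dose of Aucklandiae TYMS, MCM3, CDT1 and RFC1 lie below the vehicle band.

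Extracts of the same code set were compared by the difference between their high-against-low effects. Between Polygalae and Aucklandiae 3 members differed, with 6.82% of all tested genes called. MCM3 had an effect of -0.05 ± 0.04 for Polygalae and -0.28 ± 0.04 for Aucklandiae, a difference of 0.23 ± 0.06 (edgeR adjusted p = 0.005). CDT1, the licensing factor that is destroyed in S phase, had effects of 0.10 ± 0.05 and -0.21 ± 0.05, a difference of 0.31 ± 0.07 (edgeR adjusted p = 0.0053). RFC1 had effects of 0.01 ± 0.05 and -0.24 ± 0.05, a difference of 0.25 ± 0.07 (edgeR adjusted p = 0.02). Between Schisandrae and Liriopis RRM2 differed by 0.19 ± 0.05 (0.21 ± 0.03 and 0.03 ± 0.03, edgeR adjusted p = 0.013), with 4.97% of all tested genes called, and this call was lost without low-dose Liriopis replicate 1 (0.15). Between Zizyphi and Longan 0 members were called by edgeR, 0 with DESeq2 and 0 at an unadjusted p under 0.05, with 0 of all tested genes called.

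Wortmannin and high-dose Aucklandiae, which lowered the most members, were also set against each other directly, a comparison chosen after the other results were seen and crossing code sets. Of the 41 members 9 differed, 7 lower and 2 higher under wortmannin, with 34.4% of all tested genes called (17.7% lower, 16.7% higher). RRM2 was lower under wortmannin (205, 201 and 185 against 225, 234 and 230 CPM, -0.22 ± 0.03, edgeR adjusted p = 1.3e-06), and RFC5 was lower (24.2, 22.8 and 21.2 against 26.5, 28.8 and 28.3 CPM, -0.29 ± 0.06, edgeR adjusted p = 3.1e-05). RFC1 was higher under wortmannin (116, 115 and 120 against 99.7, 96.7 and 104 CPM, 0.23 ± 0.05, edgeR adjusted p = 0.00033). These 3 genes did not overlap between the groups. E2F1 was higher under wortmannin by 0.15 ± 0.06 (edgeR adjusted p = 0.031), a call lost without wortmannin replicate 1 or high-dose Aucklandiae replicate 1 or 3. POLA1 and MCM7 were not called (35.8 ± 1.97 against 35.5 ± 0.227 CPM, and 199 ± 12.2 against 202 ± 6.74 CPM). Without wortmannin replicate 3 the count was 5.

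Genes of G2 and M phase had lower medians than the replication genes in most of these comparisons. Of 20 genes of G2 and M phase, among them PLK1, CCNB1 and TOP2A, 20 fell under wortmannin (median -0.792), 20 under high-dose Aucklandiae (-0.583), 18 under high-dose Polygalae (-0.373), 12 under high-dose Schisandrae (-0.189), 10 under high-dose Zizyphi (-0.187), 4 under high-dose Longan (-0.167) and 0 under high-dose Liriopis (-0.015, edgeR). The shares of all tested genes called lower were 16.2% under wortmannin and 12.5%, 9.92%, 7.26% and 1.86% under high-dose Aucklandiae, Polygalae, Schisandrae and Zizyphi. Called in either direction were 1.78% under high-dose Longan and 0.0484% under high-dose Liriopis. The medians of the 41 replication genes in the same comparisons were -0.202, -0.199, -0.1, -0.102, -0.063, -0.053 and -0.03. High- against low-dose Aucklandiae gave -0.528 for the G2 and M phase genes and -0.141 for the replication genes. The exception was high-dose Liriopis, and the difference between the lists was not tested. PLK1, a mitotic kinase, went from 336 ± 1.7 to 153 ± 9.29 CPM under wortmannin (-1.13 ± 0.06, edgeR adjusted p = 6.7e-21), and CCNB1, the mitotic cyclin, fell by 0.98. Under high-dose Aucklandiae PLK1 fell by 0.84 and TOP2A, which untangles sister DNA, by 0.70. TOP2A fell by 0.49 and KIF20A by 0.47 under high-dose Polygalae, KIF20A by 0.40 and PLK1 by 0.34 under high-dose Schisandrae, PLK1 by 0.25 and KIF23 by 0.26 under high-dose Zizyphi, and PLK1 by 0.31 and KIF20A by 0.19 under high-dose Longan.

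**Figure D4:**
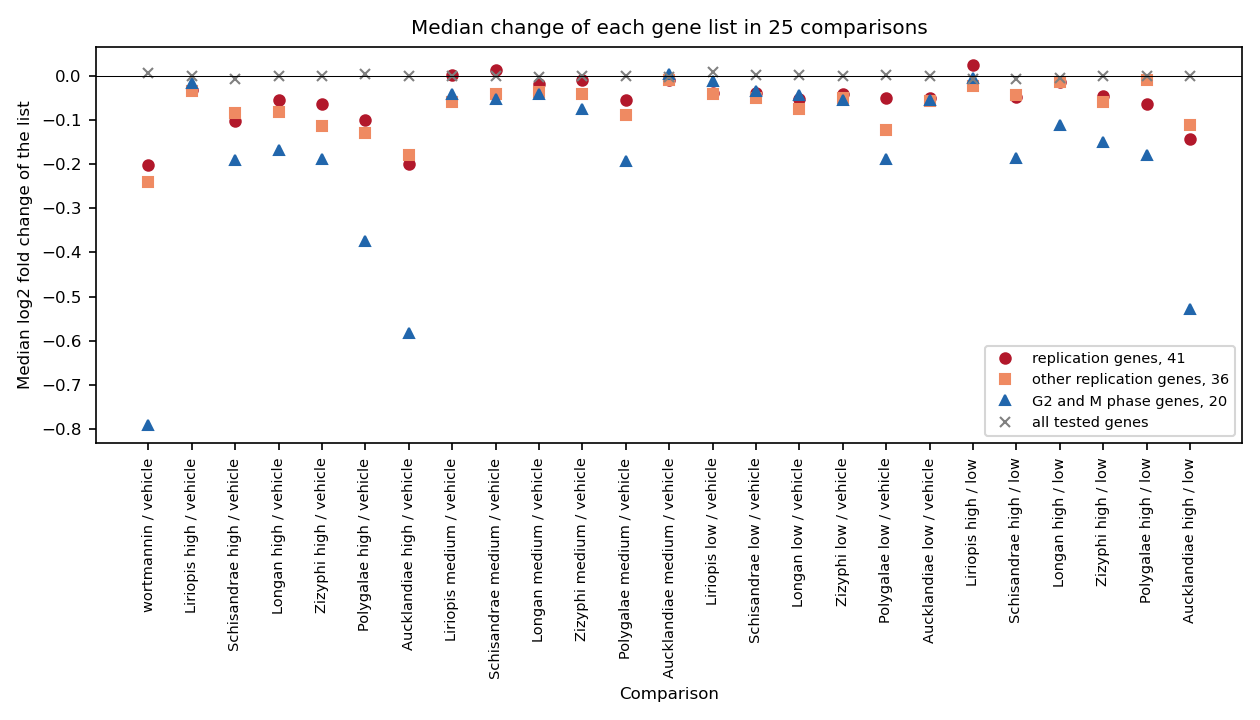
Median log2 fold change (vertical axis) of the 41 replication genes, 36 other replication genes, 20 G2 and M phase genes and all tested genes in 25 comparisons (horizontal axis). The G2 and M phase median reaches -0.792 under wortmannin and -0.583 under high-dose Aucklandiae, where the replication medians are -0.202 and -0.199.

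A further list of 36 replication genes was counted in the same way and was not tested against the members. It had 23 genes lower and 0 higher under wortmannin (median -0.24), 18 and 1 under high-dose Aucklandiae (-0.179), 12 and 1 under high-dose Polygalae (-0.129), 9 and 0 under high-dose Schisandrae (-0.082), 5 and 0 under high-dose Zizyphi (-0.113), 1 and 0 under high-dose Longan (-0.08) and 0 under high-dose Liriopis (-0.032, edgeR). Over all tested genes 16.2%, 12.5%, 9.92%, 7.26% and 1.86% were called lower under wortmannin and high-dose Aucklandiae, Polygalae, Schisandrae and Zizyphi. In either direction 1.78% were called under high-dose Longan and 0.0484% under high-dose Liriopis. CCNA2, the cyclin of S phase and G2, fell by 0.72 under wortmannin (140 ± 12 to 85.2 ± 5.57 CPM, edgeR adjusted p = 4.2e-14), by 0.53 under high-dose Aucklandiae, by 0.33 under high-dose Schisandrae and by 0.25 under high-dose Zizyphi. POLE3, a histone-fold subunit of polymerase epsilon, fell by 0.52 under wortmannin. ASF1B, a histone chaperone, fell by 0.51 under high-dose Aucklandiae and by 0.27 under high-dose Schisandrae. DNMT1, the maintenance methyltransferase, fell by 0.32 under high-dose Polygalae, TICRR by 0.34 under high-dose Zizyphi and CHAF1B by 0.23 under high-dose Longan. The single rise under high-dose Aucklandiae and under high-dose Polygalae was DUT, which removes dUTP (0.54 and 0.55), a gene outside the rule for named genes.

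Of 25 regulators of the E2F and RB pathway 24 were tested, and the shares called were not compared by a test with those of all tested genes (32.6% for wortmannin, and 26.1%, 20.1% and 15.6% for high-dose Aucklandiae, Polygalae and Schisandrae). Under wortmannin 8 fell and 1 rose, with TFDP1, the partner of E2F factors, lower by 0.40 (edgeR adjusted p = 1.2e-09) and the repressive factor E2F4 lower by 0.42. The rise was E2F2 (0.38), named after its value was seen. Under high-dose Aucklandiae 7 fell and 4 rose, with CDKN1B, a CDK inhibitor, lower by 0.37 and E2F8, a repressive E2F, lower by 0.55. Other CDK inhibitors were among those that rose, CDKN2B by 0.74, CDKN2A by 0.55 and CDKN1A by 0.24, named after their values were seen, and CDKN2C fell by 0.39. Under high-dose Polygalae 4 fell and 3 rose, with E2F6 higher by 0.33 and E2F7 lower by 0.28. Under high-dose Schisandrae 1 fell and 2 rose, E2F8 lower by 0.49 and E2F6 higher by 0.24 among them. Under high-dose Zizyphi RBL1 (-0.21) and CDK6 (-0.28) fell, beside 4.42% of all tested genes called. Under high-dose Longan and high-dose Liriopis 0 were called by edgeR, beside 1.78% and 0.0484% of all tested genes.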

How the data were processed

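For 60 libraries, 1 table deposited by the authors gives expected counts (estimated reads per gene, 10.3% of them not whole). Per the submitters' processing notes, RSEM 1.3.3, STAR 2.7.3a, FastQC 0.11.9 and Trim Galore 0.6.5 were used. What annotation release and strand setting were used was not given in the sources used here, so members whose exons overlap another gene are uncertain. Gene positions and overlaps are those of GENCODE 29 on GRCh38.

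Counts were rounded, filtered with edgeR's filterByExpr (16517 genes left), TMM scaled (0.92 to 1.08) and fitted in a single quasi-likelihood model of 20 groups (R 4.3.3, edgeR 4.0.16, limma 3.58.1). SE is the log2 fold change divided by the square root of F. Tests were 2-sided and Benjamini-Hochberg adjusted over all genes. The model was also run on counts simulated from its own fitted means and spread. Those counts held no added code-set effect, so the run cannot address the code sets, and nothing is read from it. There were 25 comparisons and 3 difference tests, and 1 comparison was added later. The labels do not say whether replicates were separate cultures, so a p-value covers only the spread of these samples, which may be technical.

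The members, lists and tests were chosen with earlier results of these data known. Named genes are the 4 called members with the smallest p in each wortmannin or high-dose comparison, the 2 smallest in the others, 13 fixed members, and 2 called genes of each further list, of which 1 is not reported here.

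Alternatives were RLE scaling, no low-count filter, a stricter filter (1 CPM in 30 libraries), DESeq2 1.42.0, the 6 libraries of a comparison alone, the replicate number as a block, and leaving out each library or 4 libraries set apart earlier. Replicate numbers come from the labels, which do not say what they mark. Over 9243 genes with a mean of at least 10 CPM, deviations of same-numbered libraries correlated above 0.1 in all 3 pairs in 3 comparisons alone. These were the high against the low dose of Zizyphi (0.41, 0.59, 0.22) and of Schisandrae (0.47, 0.17, 0.40), and the low dose of Liriopis against the vehicle (0.58, 0.35, 0.26).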

Additional observations from a re-analysis of the deposited data

Results flagged for a closer look

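The high-against-low effect of 4 members differed between the 2 extracts of a code set, each by a test of the difference itself. Between Polygalae and Aucklandiae 3 of the 41 members were called, beside 6.82% of all tested genes. Between Schisandrae and Liriopis 1 of the 41 was called, beside 4.97% of all tested genes. Whether the members differed more often than other genes was not tested, so the flag rests on the single genes. Between Polygalae and Aucklandiae the log2 differences were 0.23 ± 0.06 for MCM3, 0.31 ± 0.07 for CDT1 and 0.25 ± 0.07 for RFC1 (SE, edgeR adjusted p = 0.005, 0.0053 and 0.02). In each the high dose of Aucklandiae was the lower side, with effects of -0.28, -0.21 and -0.24 against -0.05, 0.10 and 0.01 for Polygalae. Between Schisandrae and Liriopis the difference was 0.19 ± 0.05 for RRM2 (edgeR adjusted p = 0.013), with effects of 0.21 and 0.03. The high doses of Polygalae (450 µg/mL) and Aucklandiae (500 µg/mL) were not the same, nor were the low doses (18 and 20 µg/mL). The RFC1 call was lost when any of 6 of the 12 libraries was left out, and the RRM2 call without low-dose Liriopis replicate 1. The difference tests were not refitted without the 4 libraries set apart or with their own libraries alone. Low-dose Liriopis replicate 1 and low-dose Schisandrae replicate 2, both set apart, enter the RRM2 difference. With groups of 3 libraries, single libraries were not screened for outlying values.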

How the results depend on the processing

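No alternative reversed the direction of a called member. The number of called members stayed within 1.5 times of the reported number in all 29 results with RLE scaling and with the replicate block over all libraries (28 for wortmannin, 25 for high-dose Aucklandiae), and in all 6 high-against-low comparisons with the block within a code set (5 in place of 4 for Schisandrae). The block took no call from a named member. With no low-count filter the number was 2 for high-dose Schisandrae, 1 for high-dose Zizyphi, 7 for high-dose Polygalae, 3 for medium-dose Polygalae, 5 for low-dose Polygalae, 0 for low-dose Aucklandiae, 1 for high- against low-dose Schisandrae, 3 for high- against low-dose Polygalae, 5 for wortmannin against high-dose Aucklandiae and 0 for the difference of Schisandrae and Liriopis. With the 6 libraries of a comparison alone it was 0 for high-dose Schisandrae and Zizyphi, for medium-dose Schisandrae, Polygalae and Aucklandiae and for low-dose Aucklandiae, 2 for low-dose Polygalae and 10 for high- against low-dose Aucklandiae. Without the 4 libraries set apart, a choice made after the data were seen, it was 4 for high-dose Schisandrae, 1 for high-dose Zizyphi, 5 for low-dose Polygalae and 0 for medium-dose Schisandrae and for medium- and low-dose Aucklandiae. The stricter filter gave 2 for medium-dose Aucklandiae and DESeq2 gave 1 for low-dose Zizyphi. The cause of these shifts was not tested. Leaving out 1 library at a time gave 22 to 27 for wortmannin, 22 to 24, 10 to 15, 4 to 8 and 0 to 2 for high-dose Aucklandiae, Polygalae, Schisandrae and Zizyphi, 3 to 12 and 3 to 10 for medium- and low-dose Polygalae, and 0 to 1 for medium-dose Schisandrae and for medium- and low-dose Aucklandiae. It gave 13 to 16, 3 to 6 and 2 to 3 for high- against low-dose Aucklandiae, Polygalae and Schisandrae, 5 to 9 for wortmannin against high-dose Aucklandiae, 2 to 4 for the difference of Polygalae and Aucklandiae, 0 to 2 for that of Schisandrae and Liriopis, and 0 in the other results. Depth limits CCNE2 most, at 54 to 151 reads per library, and the median SE of the members was 0.06.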
